A study of Mus musculus with 30 samples.

Results

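The suppressors of cytokine signalling (SOCS) with their founding relative CIS form a family of 8 genes in the mouse, Cish and Socs1 to Socs7, and all 8 were followed here across 30 expression arrays of splenic B cells. The members were taken by symbol: a probe set counted if the platform annotation gave it 1 gene symbol and that symbol was a member's. This found 24 probe sets, of which 21 passed the filter on low values and 3 did not, and each of the 8 genes had at least 1 tested set among 12183 genes tested in all.

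Cytokines signal by activating receptor-bound Janus kinases (JAK), which phosphorylate STAT transcription factors. Several family members are themselves transcribed by STATs and then bind receptors or kinases through an SH2 domain, while their SOCS box recruits an elongin and cullin ubiquitin ligase, so they close a negative feedback loop. In B cells SOCS1 is known to restrain signalling by interferons and IL-4, CIS and SOCS2 are classical products of STAT5, and SOCS3 acts mainly on receptors of the IL-6 family.

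All mice were of the C57BL/6, B1-8i background, and the cells were mature B cells enriched from spleen while at rest. Wild-type cells were Irf4+/+. The other cells, called KO here at every dose, were Irf4-/- and carried an Irf4 gene inducible by doxycycline. The sources used here name no promoter for the inducible gene, and they do not say whether KO cultures of different doses came from the same mice. Day 0 cells were unstimulated, and cells of days 1 and 3 were cultured with CD40L, IL-2, IL-4 and IL-5. KO cells received doxycycline at 0, 16 or 100 ng/mL, called no, low and high doxycycline. This made 10 groups of 3 arrays, each replicate from an individual mouse: 3 wild-type groups, 1 for each day, and 7 KO groups, 1 of resting cells and 1 for each dose on either day of culture. IRF4 is a transcription factor known to drive class switching and, at higher amounts, plasma cell formation, and the comparisons ask how its absence and its graded return change transcript levels.

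Levels below are log2(intensity + 16), and each difference subtracts the second group named from the first on that scale, with its standard error (SE) from limma. A difference was called if limma's Benjamini-Hochberg adjusted p over the 12183 genes was under 0.05. With 3 arrays a group, the smallest p of an exact permutation test is 0.1, two-sided, and the tests of members therefore use the spread that limma estimates over all genes and groups. Levels of different probe sets cannot be compared with each other.

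The selection from the RefSeq promoter table skipped a chromosome and gave windows for 4 of the 8 members. The windows of Cish, Socs1 and Socs3 are shown. After stimulation of wild-type cells the first pair rose and Socs3 fell, though on the representing sets Socs2 rose more and Socs5 fell more. Each window spans 300 bases around the annotated start, most of them before it, 5′ to 3′ on the gene's strand in GRCm38.p6. Cish lies at chr9:107296409-107296708 on the plus strand, Socs1 at chr16:10785487-10785786 on the minus strand and Socs3 at chr11:117969317-117969616 on the minus strand. Capitals mark matches to TTCNNNGAA, the form that STAT5 is known to bind, in Cish and Socs3, and to a pair of GAAA with any 2 bases between, an interferon response element form, in Socs1.
Cish: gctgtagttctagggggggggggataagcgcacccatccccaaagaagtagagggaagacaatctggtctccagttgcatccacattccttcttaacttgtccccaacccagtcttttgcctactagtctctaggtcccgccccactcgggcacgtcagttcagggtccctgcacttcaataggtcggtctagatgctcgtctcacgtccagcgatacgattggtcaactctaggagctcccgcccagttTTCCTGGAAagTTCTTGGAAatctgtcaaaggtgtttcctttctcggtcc
Socs1: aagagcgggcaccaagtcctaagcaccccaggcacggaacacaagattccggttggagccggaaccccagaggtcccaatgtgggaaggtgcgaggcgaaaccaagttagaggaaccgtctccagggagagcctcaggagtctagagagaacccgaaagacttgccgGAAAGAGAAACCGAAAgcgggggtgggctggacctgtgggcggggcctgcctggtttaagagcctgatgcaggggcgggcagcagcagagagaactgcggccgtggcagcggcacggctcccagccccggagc
Socs3: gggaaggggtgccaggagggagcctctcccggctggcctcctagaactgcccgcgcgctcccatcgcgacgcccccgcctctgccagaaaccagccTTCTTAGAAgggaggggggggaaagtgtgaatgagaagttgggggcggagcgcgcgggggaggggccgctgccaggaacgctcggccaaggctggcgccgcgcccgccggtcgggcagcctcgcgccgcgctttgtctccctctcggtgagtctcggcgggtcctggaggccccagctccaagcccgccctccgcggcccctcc
Both strands were searched for these motifs and for TTC and GAA with any 4 bases between, the form that STAT6 is known to bind. The Cish window held 2 matches to TTCNNNGAA, beginning at 0 and 11 bases from the start, and the Socs3 window held 1, 154 bases before the start. The Socs1 window held 2 overlapping matches to the GAAA pair, beginning 83 and 77 bases before the start. The Socs4 window held no match to these 3 motifs. Among all 32851 windows of the table, 8.3% held TTCNNNGAA, 6.95% held the form with 4 bases between and 3.44% held the GAAA pair. These matches are letters in a window and were not tested as sites.

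Some facts of the series bear on the members. The array medians of intensity ranged from 171.4 to 199.7. Irf4 had 2 probe sets, and 1 of them rose with doxycycline in KO cells, from between 7.34 and 7.68 with none to between 12.94 and 13.09 at the low and between 13.53 and 13.66 at the high dose at day 3. The same set stayed between 7.23 and 8.07 in wild-type cells on every day, and the other set read 10.77 or more on every array, KO included, so neither set shows the deletion. At day 1, replicate 2 labelled as without doxycycline read 10.77 on the doxycycline-responsive set, where replicates 1 and 3 read 7.84 and 7.8. Replicate 2 labelled as low doxycycline read 7.69, where replicates 1 and 3 read 11.17 and 10.89. These libraries go against their dose labels, and the main results that rest on them are given with and without them. B cell markers were high in every group: the summed intensity of the 9 tested of 10 listed genes lay between 47712 and 87024 and no single one was under 623.6. The 16 myeloid markers, all tested, summed to between 2605 and 6254 in wild-type cells and between 2999 and 26920 in KO cells. The 9 plasma cell markers used below include Irf4 itself. It is read there by the set that was 10.77 or more on every array, and the plasma cell sums hold its intensity. Prdm1 is counted both among them and among the STAT5 targets.

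**Figure D1:**
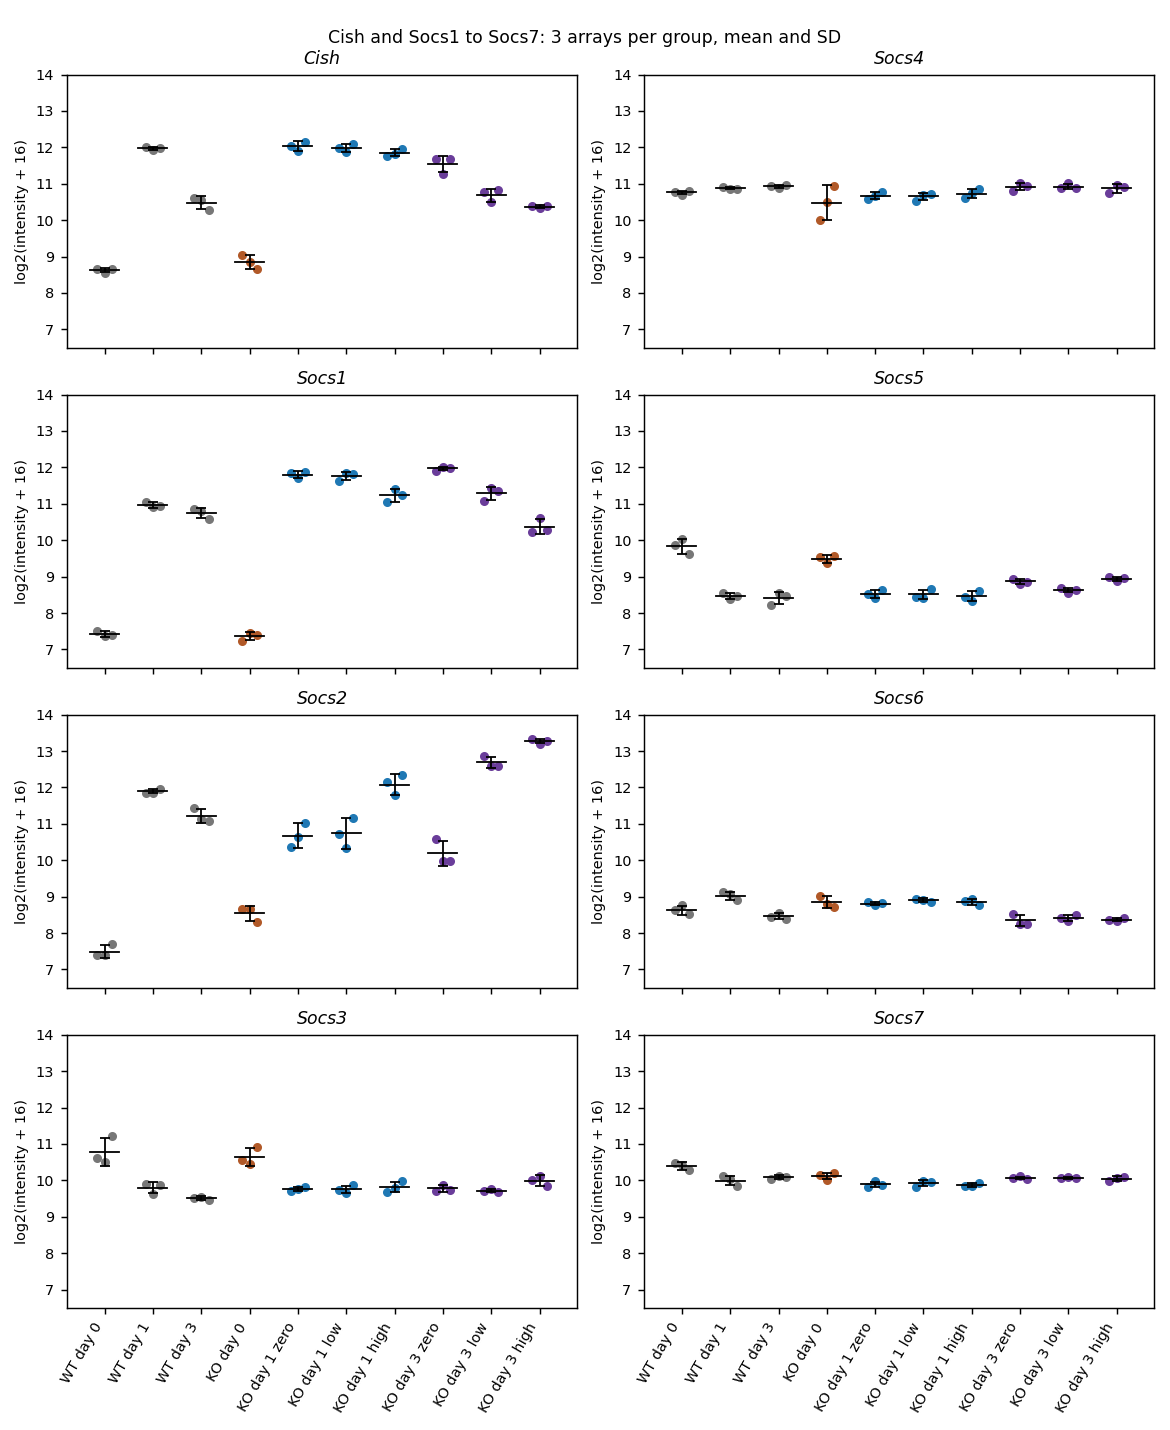
Level of each of the 8 members in every array, as log2(intensity + 16), by group; points are arrays, long bars are means and whiskers are SD of 3 arrays. Cish, Socs1 and Socs2 span 3.4, 4.61 and 5.78 between their highest and lowest group means, and Socs4, Socs6 and Socs7 span 0.45, 0.68 and 0.52.

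Stimulation of wild-type cells raised Cish, Socs1 and Socs2 steeply and lowered Socs3 and Socs5 within 1 day. Of the 8 members, 4 were called higher at day 1 than at day 0 and 3 lower, where 81.5% of all genes were called, 33.9% higher and 47.6% lower. The median difference of the members was 0.26 and that of all genes -0.15. A share of that size is near the background, so the sizes carry the description. Of the marker lists, 8 of 9 B cell, 9 of 16 myeloid, 4 of 6 NK, 6 of 7 T cell, 4 of 5 dendritic cell and 6 of 9 plasma cell genes were lower at day 1. Their summed intensities at day 0 and day 1 were between 82795 and 86579 and between 53089 and 55198 for B cell markers, and between 5985 and 6254 and between 2737 and 3076 for myeloid markers. Their part in the differences of the members was not tested. In such bulk samples, fewer cells of a type and less RNA per cell cannot be told apart.

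Socs2, a suppressor known for limiting growth hormone signalling, read 7.39, 7.4 and 7.69 in the 3 wild-type arrays of day 0, and 11.86, 11.86 and 11.97 at day 1. The day 1 arrays all lay far above the day 0 arrays. The difference was 4.4 (SE 0.191, adjusted p = 4.1e-16 in limma). The day 0 mean intensity of 165 lay under the table's median of 188.2, so no fold is given.

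Socs1, the inhibitor that blocks JAK catalysis directly, read 7.51, 7.36 and 7.39 at day 0 and 11.06, 10.92 and 10.94 at day 1. All 6 day 0 arrays, wild type and KO, were low for Socs1, and its probe set exceeded the table's median intensity of 188.2 on the other 24 arrays. The difference was 3.55 (SE 0.103, limma adjusted p = 3.5e-19). With mean intensity at 156 in wild-type cells of day 0, under the median of the table, no fold is given.

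Cish, which encodes CIS, a protein that binds cytokine receptors and competes with STAT5, read 8.67, 8.55 and 8.66 at day 0 and 12.01, 11.93 and 11.98 at day 1. Its groups were as cleanly separated. The difference was 3.35 (SE 0.11, limma adjusted p = 2.8e-18), or 10.2-fold.

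The remaining members moved less. Socs3, the inhibitor of IL-6 family receptors, read 10.61, 10.5 and 11.22 at day 0 and 9.9, 9.63 and 9.87 at day 1, a fall without overlap. It fell by 0.97 (SE 0.134, limma adjusted p = 4.7e-07), and its other sets, 1416576_at and 1455899_x_at, fell by 1.06 and 1.2. Socs5, a member linked to EGF receptor and IL-4 receptor signalling, read 9.86, 10.02 and 9.61 at day 0 and 8.54, 8.38 and 8.47 at day 1. It fell by 1.37 (SE 0.0942), though its other set 1423349_at fell by only 0.33, so the size depends on the probe set. Socs6 was higher by 0.4 (SE 0.0826) and Socs7 fell by 0.4 (SE 0.0649), both called. The last of these are members tied mainly to insulin and growth factor receptor signalling.

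Socs4 was not called by the set of highest mean, with a difference of 0.12 (SE 0.133, limma adjusted p = 0.43). Its other 3 sets, 1421273_at, 1421274_at and 1421275_s_at, fell by 0.42, 0.62 and 0.58, each called in the fit over all 26095 probe sets. The sets of Socs4 thus disagree, and nothing in the sources used here says which transcript each one reads. The same 3 sets were also lower in KO without doxycycline than in wild type at day 1, at -0.35, -0.6 and -0.47, where the representing set gave -0.21 (SE 0.133, not called). For Socs2, the sets 1418507_s_at and 1446085_at rose by 4.5 and 3.09 like the representing set 1449109_at. By contrast 1438470_at fell by 0.5 and 1442586_at differed by 0.11 (SE 0.0938, not called), and 1441476_at stayed below the filter.

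**Figure D2:**
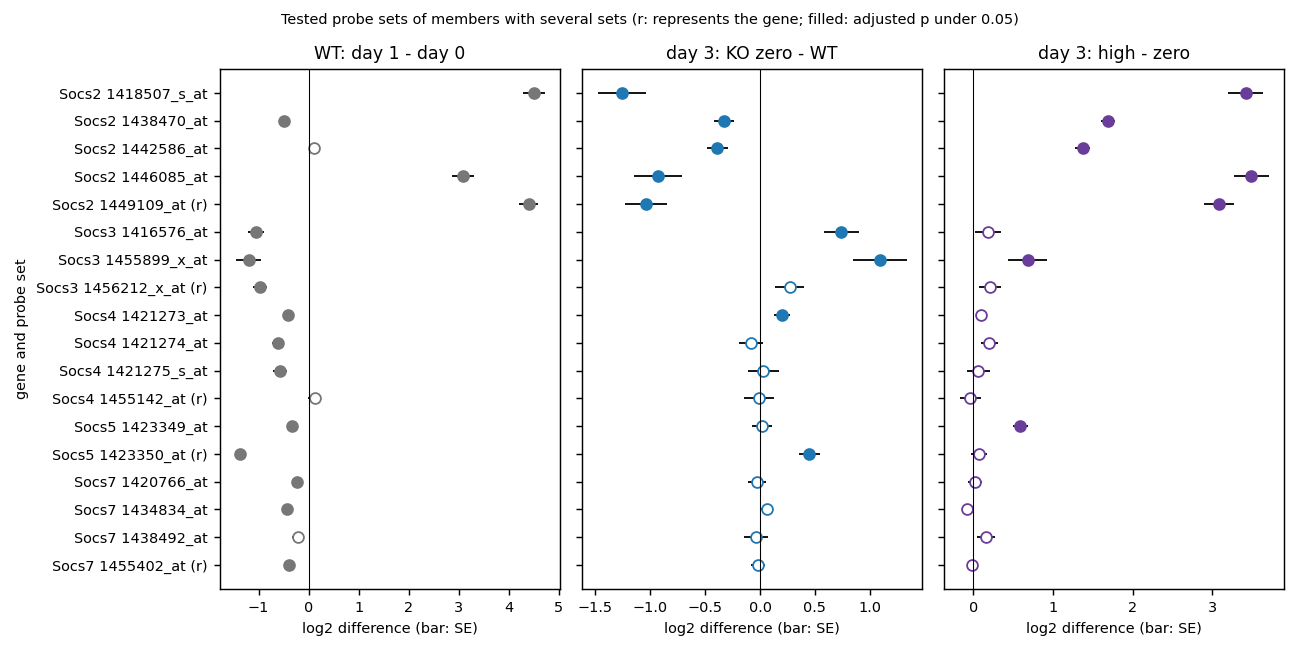
Log2 difference with its SE for each tested probe set of the 5 members with several tested sets, in 3 comparisons; filled points have an adjusted p under 0.05 in limma over 26095 probe sets. In the third panel all 5 Socs2 sets are higher with high than with no doxycycline, between 1.37 and 3.49, while in the first panel they differ in direction.

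In KO cells without doxycycline the same comparison of day 1 with day 0 called Cish, Socs1 and Socs2 higher and Socs3, Socs5 and Socs7 lower, where 69.8% of all genes were called, 39.8% higher and 30.1% lower. These are calls of the representing sets. The other Socs5 set gave -0.05, not called. Of 4 Socs7 sets 2 were called lower, and the 4 lay between -0.41 and 0.15. Of 4 Socs4 sets 3 were called lower, down to -1.0, and the representing set gave 0.19 (SE 0.133, not called). Cish rose by 3.18 (SE 0.11), close to its wild-type rise, and the interaction of genotype and day was -0.16 (SE 0.156, limma adjusted p = 0.4). Socs1 rose by 4.44 (SE 0.103), which was 0.89 more than in wild type (SE 0.146, limma adjusted p = 7.6e-05 for the interaction). Socs2 rose by 2.14 (SE 0.191, 4.4-fold), which was 2.26 less than in wild type (SE 0.271, interaction adjusted p = 2.3e-06). The other Socs2 sets gave 2.09 (1418507_s_at), 0.64 (1446085_at), 0.13 (1442586_at, not called) and -0.4 (1438470_at) for this step in KO cells. Their interactions were -2.41 and -2.45 for the first pair, both called, and 0.02 and 0.11 for the last pair, neither called. The interaction also called Socs5 at 0.4, a call lost with each array centred on its median (0.23, adjusted p = 0.2), and Socs6 at -0.43, and 43.9% of all genes, 32.4% higher and 11.5% lower. Without the libraries that go against their labels, the interaction was 0.94 for Socs1, -2.25 for Socs2, 0.46 for Socs5 and -0.41 for Socs6, all still called. The rises in KO cells were then 3.25 for Cish, 4.49 for Socs1 and 2.15 for Socs2, all called.

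From day 1 to day 3 in wild-type cells Cish, Socs2 and Socs6 were called lower on their representing sets and no member higher, where 69.4% of all genes were called, 43.3% higher and 26.2% lower. Cish read 10.61, 10.55 and 10.28 at day 3 and fell by 1.49 (SE 0.11, limma adjusted p = 3.4e-11). All 3 values lay between those of day 0 and those of day 1. Socs2 read 11.44, 11.14 and 11.09 and fell by 0.67 (SE 0.191, limma adjusted p = 0.0036). Socs1 stayed near its day 1 level at 10.85, 10.81 and 10.58, a difference of -0.22 (SE 0.103, limma adjusted p = 0.058). Socs6 fell by 0.57 (SE 0.0826). The 3 other Socs4 sets fell by 0.54, 0.73 and 0.58, while its representing set gave 0.06 (SE 0.133, not called). Of the Socs2 sets, 1438470_at rose by 0.26 (SE 0.0898). The sets of Socs3 differed too: 1416576_at and 1455899_x_at fell by 1.03 and 1.64, and the representing set 1456212_x_at differed by -0.29 (SE 0.134, not called).

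In resting cells Socs2 showed the largest difference between genotypes among the representing sets. At day 0, Socs2 was higher and Socs5 and Socs7 were lower in KO than in wild type, where 31.5% of all genes were called, 13.1% higher and 18.4% lower. Socs2 read 8.65, 8.66 and 8.31 in KO cells, all above the wild-type arrays, a difference of 1.05 (SE 0.191, limma adjusted p = 0.00021). The sets 1418507_s_at and 1446085_at gave 0.99 and 0.95, and 1438470_at and 1442586_at gave -0.06 and 0.02, neither called. Socs5 was lower by a difference of -0.34 (SE 0.0942), and its call was lost without KO replicate 2 (adjusted p = 0.053) or wild-type replicate 2 (adjusted p = 0.074). Socs7 differed by -0.27 (SE 0.0649), and its other 3 sets by between -0.06 and -0.04, none called. With only these 2 groups in the fit, Socs5 and Socs7 lost their calls (adjusted p = 0.092 and 0.076) and Socs2 remained. The count of 3 of 8 members is near the share of all genes. Beside these values, 14 of 16 myeloid markers were higher in KO cells, with summed intensities between 12414 and 26920 against between 5985 and 6254. Of 6 tested NK markers 5 were higher, with sums between 3422 and 4358 against between 1387 and 1751. Of 9 plasma cell markers 5 were lower, with sums between 10707 and 13827 against between 24132 and 30295. Of 7 tested T cell markers 4 were higher, of 5 tested dendritic cell markers 3 and of 5 platelet markers 2, and of 9 tested B cell markers 1 was higher and 2 lower. Their part in the differences of the members was not tested.

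At day 1, KO cells without doxycycline had more Socs1 and less Socs2 than wild-type cells. Socs1 and, in the other direction, Socs2 and Socs6 were called, where 49.6% of all genes were called, 33.9% higher and 15.7% lower. Socs1 read 11.84, 11.7 and 11.87 in KO, above every wild-type array, a difference of 0.83 (SE 0.103, limma adjusted p = 1.4e-06). Socs2 read 10.36, 10.65 and 11.03, below every wild-type array, a difference of -1.21 (SE 0.191, limma adjusted p = 2.5e-05). Without the libraries against their labels these were 0.88 and -1.2, both called. Socs6 differed by -0.22 (SE 0.0826, adjusted p = 0.032), and without those libraries by -0.2 (adjusted p = 0.11). The Socs6 call was also lost when any of the 6 arrays but wild-type replicate 3 was left out, with adjusted p up to 0.12. Cish differed by 0.06 (SE 0.11, adjusted p = 0.68), with overlapping arrays. The sets 1416576_at and 1455899_x_at of Socs3 were called lower, at -0.49 and -0.73, where its representing set gave -0.04 (SE 0.134).

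Markers of other cells were higher in the same KO cultures of day 1, where 49.6% of all genes were called, 33.9% higher and 15.7% lower. Of 16 myeloid markers 15 were higher, summing to between 7770 and 10102 against between 2737 and 3076, and 4 of 6 NK markers were higher. Of 7 tested T cell markers 5 were higher, of 5 tested dendritic cell markers 3 and of 5 platelet markers 2, as were 1 of 9 B cell markers and the 1 tested erythroid marker. Of 9 plasma cell markers 1 was higher and 5 were lower, with sums between 13303 and 13967 against between 16593 and 18822. Their part in the differences of Socs1 and Socs2 was not tested.

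At day 3 the KO cells without doxycycline had more Cish and Socs1 and less Socs2 than wild-type cells. Cish, Socs1 and Socs5 were called higher than in wild type and Socs2 lower, where 34.9% of all genes were called, 19.0% higher and 15.8% lower. Socs1 read 11.91, 12.01 and 11.98, its highest group, and exceeded wild type by 1.22 (SE 0.103, limma adjusted p = 4e-09). Cish read 11.69, 11.28 and 11.67, all above the wild-type arrays, and exceeded wild type by 1.07 (SE 0.11, limma adjusted p = 8.2e-08). Socs2 read 10.59, 9.97 and 9.99, all below the wild-type arrays, a difference of -1.04 (SE 0.191, limma adjusted p = 0.00016). All 5 tested Socs2 sets were called lower, between -1.26 and -0.33. Socs5 was higher by 0.45 (SE 0.0942, limma adjusted p = 0.00059) on the representing set, and the other set gave 0.02 (SE 0.0895). The other Socs3 sets were called higher, 1416576_at by 0.74 and 1455899_x_at by 1.09, and the representing set gave 0.27 (SE 0.134, adjusted p = 0.12).

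In the day 3 comparison of genotypes, other gene groups moved beside the members, where 34.9% of all genes were called, 19.0% higher and 15.8% lower. Of 9 plasma cell markers 8 were lower in KO without doxycycline, Jchain, the joining chain of polymeric immunoglobulin, by a difference of -6.9 (SE 0.312). Of 16 myeloid markers 13 were higher, with sums between 12801 and 22793 against between 2605 and 3031, and all 6 tested NK markers were higher, with sums between 7341 and 14434 against between 1988 and 2987. Of 5 platelet markers 2 were higher, of 7 tested T cell markers 3 were higher and 1 lower, of 5 tested dendritic cell markers 2 were higher and 1 lower, and the 1 tested erythroid marker was not called. In the groups compared, the lowest single intensity of a myeloid, NK, platelet or T cell marker was 34.6, under the table's median of 188.2. The part of these groups in the differences of the members was not tested.

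Over the whole culture, from day 0 to day 3, the change in KO cells without doxycycline differed from the wild-type change for 6 members, 4 higher and 2 lower, where 25.9% of all genes were called, 16.0% higher and 9.95% lower. Socs1 gave 1.28 (SE 0.146), Cish 0.84 (SE 0.156) and Socs2 -2.09 (SE 0.271) for this difference of changes. Socs5 gave 0.79 on its representing set and 0.21 on the other (SE 0.127, not called). The Socs3 sets 1416576_at and 1455899_x_at were called at 0.73 and 1.26, and its representing set gave 0.4 (SE 0.189, not called). The step from day 1 to day 3 also differed between genotypes. Without doxycycline, Cish fell by only 0.49 (SE 0.11), and the difference of this change from the wild-type fall was 1.01 (SE 0.156, limma adjusted p = 0.0001), where 29.2% of all genes were called, 9.0% higher and 20.2% lower. Socs6 fell by 0.46 (SE 0.0826). On their representing sets Socs5 rose by 0.34 (SE 0.0942) and Socs7 by 0.18 (SE 0.0649), where 52.6% of all genes were called, 25.9% higher and 26.7% lower. The other Socs5 set was called in the opposite direction, at -0.23 (SE 0.0895), and the mean of both sets gave 0.06 (adjusted p = 0.57). Of the other Socs7 sets, 1434834_at rose by 0.19, and 1420766_at and 1438492_at gave -0.19 and -0.07, neither called. Socs7 lost its call without day 1 replicate 1 or 3 or day 3 replicate 2, with adjusted p up to 0.1. Socs2 fell by 0.5 (SE 0.191, limma adjusted p = 0.033) with overlapping arrays. The Socs2 call was lost without replicate 2 or 3 of either day, with adjusted p up to 0.2. Without both libraries that go against their labels, Cish gave -0.56, Socs2 -0.51, Socs6 -0.49, Socs5 0.29 and Socs7 0.22, all called.

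**Figure D3:**
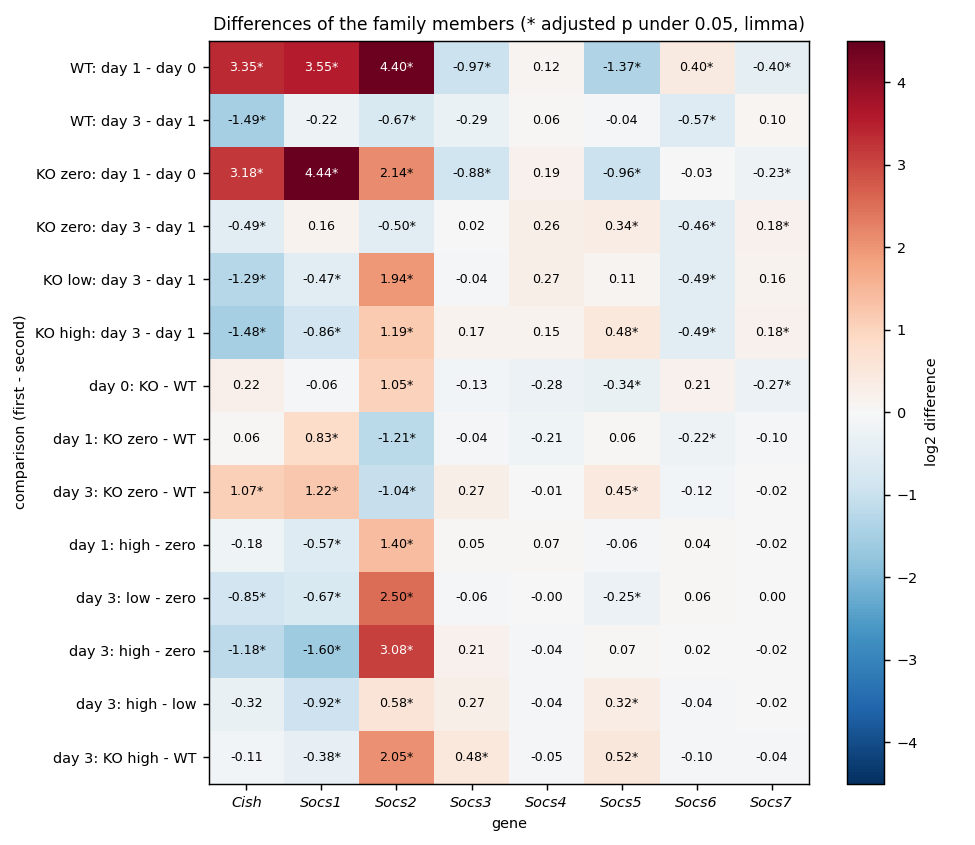
Log2 differences of the 8 members in 14 comparisons, first group minus second; colour gives the difference and asterisks mark an adjusted p under 0.05 in limma. Socs2 has opposite colours to Cish and Socs1 in the comparisons of doxycycline doses at day 3, at 3.08 against -1.18 and -1.6 for high minus none. Socs5 is also called higher for high minus low, at 0.32.

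At day 1, differences between doxycycline doses were called for Socs2 and Socs1. No group received doxycycline without the inducible gene, so the drug and the return of Irf4 cannot be told apart. At day 1 low against no doxycycline called 0 members and 0.0% of all genes in limma in either direction, and 0 members had an unadjusted p under 0.05. Without the libraries that go against their labels, which are in these groups, Socs2 differed by 0.25 and Socs1 by -0.13, neither called. High against no doxycycline at day 1 called Socs2 higher and Socs1 lower, where 2.75% of all genes were called, 1.26% higher and 1.49% lower. Socs2 read 12.14, 11.78 and 12.34 with high doxycycline, above every array without it, a difference of 1.4 (SE 0.191, limma adjusted p = 0.00024). Socs1 read 11.04, 11.4 and 11.25, below every array without doxycycline, a difference of -0.57 (SE 0.103, limma adjusted p = 0.0027). Without the library against its label these were 1.39 and -0.62, both called. With only these 2 groups in the fit, both calls were lost (adjusted p = 0.065 and 0.09). Of 16 myeloid markers 3 were lower and of 9 plasma cell markers 1 was higher in the same comparison. Their part in these differences was not tested.

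At day 3 the dose response of these members was larger. With low doxycycline, Socs2 was called higher and Cish, Socs1 and Socs5 lower than with none, where 35.8% of all genes were called, 17.6% higher and 18.2% lower. With high doxycycline, Socs2 was higher and Cish and Socs1 were lower than with none, where 48.6% of all genes were called, 24.4% higher and 24.2% lower. The day 1 to day 3 change differed between high and no doxycycline by 1.68 for Socs2, -0.99 for Cish and -1.02 for Socs1, each called, where 26.2% of all genes were called, 12.4% higher and 13.8% lower. Without the libraries against their labels these were 1.7, -0.92 and -0.97, each called.

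Socs2 read 12.87, 12.6 and 12.59 at the low dose and 13.32, 13.2 and 13.29 at the high dose, against at most 10.59 without doxycycline. No 2 of these groups overlapped. Low against no doxycycline gave 2.5 (SE 0.191, limma adjusted p = 7.2e-10), and high against none gave 3.08 (SE 0.191, limma adjusted p = 4.6e-12), or 8.48-fold. All 5 tested Socs2 sets were higher with high than with no doxycycline, the smallest 1442586_at at 1.37 (SE 0.0938). High against low doxycycline gave 0.58 (SE 0.191, limma adjusted p = 0.045), where 12.8% of all genes were called, 6.69% higher and 6.09% lower. With the replicate numbers as a block in KO arrays alone, a fit added after the data were seen, its adjusted p was 0.056. The call was also lost when any of the 6 arrays but low replicate 1 was left out, with adjusted p up to 0.14.

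Socs1 read 11.09, 11.44 and 11.35 at the low dose and 10.23, 10.6 and 10.28 at the high dose. It stepped down at each dose without overlap. Low against no doxycycline gave -0.67 (SE 0.103), high against low gave -0.92 (SE 0.103, limma adjusted p = 3e-06), and high against none gave -1.6 (SE 0.103, limma adjusted p = 9.4e-12), or 3.03-fold lower. Cish read 10.76, 10.49 and 10.82 at the low dose and 10.39, 10.32 and 10.39 at the high dose. The first step gave -0.85 (SE 0.11, limma adjusted p = 2.3e-06), and the second gave -0.32 (SE 0.11, adjusted p = 0.056). The second step was called with the replicate block in KO arrays alone, a fit added after the data were seen (adjusted p = 0.028).

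**Figure D4:**
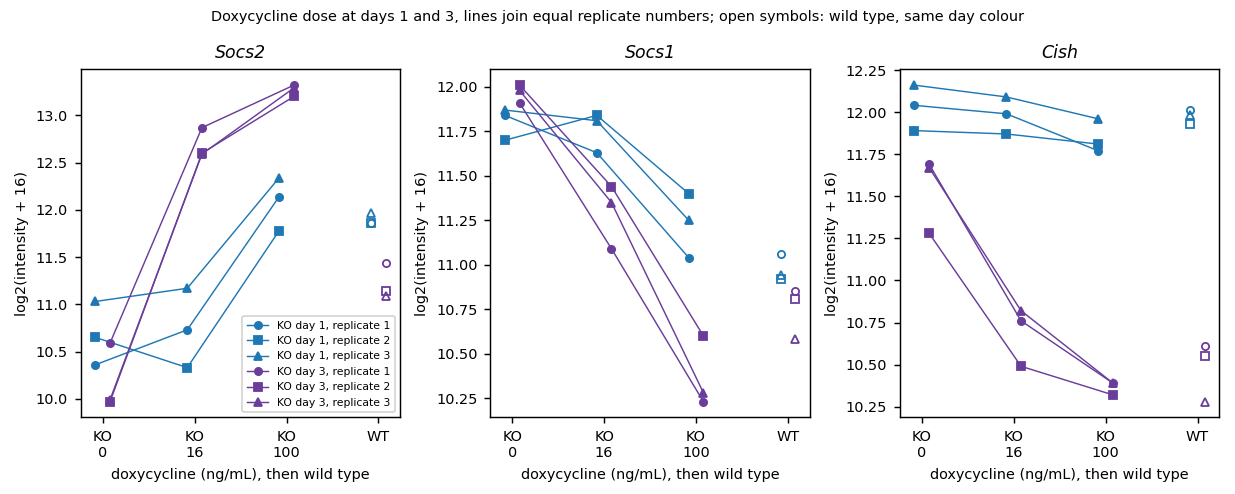
Socs2, Socs1 and Cish in each array, as log2(intensity + 16), at 0, 16 and 100 ng/mL doxycycline in KO cells, with days 1 and 3 in different colours, lines joining equal replicate numbers, and wild type as open symbols. At day 3 every Socs2 line climbs, from at most 10.59 to at least 13.2, and every Socs1 and Cish line descends.

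The Socs5 sets at day 3 differed in how they followed the dose. The representing set read 8.94, 8.81 and 8.85 without, 8.68, 8.56 and 8.62 with low and 8.98, 8.88 and 8.96 with high doxycycline. The low group lay below both others. Low against none gave -0.25 (SE 0.0942, limma adjusted p = 0.041), a call lost when any 1 of the 6 arrays was left out (adjusted p between 0.056 and 0.12). High against low gave 0.32 (SE 0.0942, adjusted p = 0.024), lost without high replicate 1 or 3 or low replicate 2 or 3 (adjusted p up to 0.098). The other Socs5 set, 1423349_at, read 8.29, 8.29 and 8.35 without, 8.42, 8.56 and 8.53 with low and 9.06, 8.85 and 8.79 with high doxycycline. Its groups stepped up without overlap. High against none gave 0.59 (SE 0.0895, adjusted p = 7.8e-06 in limma over all probe sets), high against low gave 0.4 (called) and low against none 0.19 (SE 0.0895, not called). Socs3, Socs4, Socs6 and Socs7 gave differences between -0.04 and 0.21 for high against no doxycycline on their representing sets, none called. Of the 3 Socs3 sets, 1455899_x_at was called higher, at 0.68 (SE 0.246, limma adjusted p = 0.027).

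At the low and the high dose, the change from day 1 to day 3 separated Socs2 from Cish and Socs1. Without doxycycline Socs2 and Cish had both fallen, by 0.5 and 0.49. With high doxycycline, Socs2 rose by 1.19 (SE 0.191) while Cish fell by 1.48 (SE 0.11) and Socs1 by 0.86 (SE 0.103), where 50.0% of all genes were called, 23.0% higher and 27.0% lower. With low doxycycline, Socs2 rose by 1.94 (SE 0.191) while Cish fell by 1.29 (SE 0.11) and Socs1 by 0.47 (SE 0.103), where 45.4% of all genes were called, 20.9% higher and 24.5% lower. Without the low library that goes against its label, these were 1.73, -1.35 and -0.43, all called. Socs6 fell by 0.49 at either dose. Socs5 and Socs7 rose by 0.48 and 0.18 with high doxycycline, and the Socs7 call was lost without day 1 replicate 1 or 2 or day 3 replicate 2 or 3 (adjusted p up to 0.09). With low doxycycline Socs7 gave 0.16 (adjusted p = 0.05). The replicate block in KO arrays alone, added after the data were seen, called it at an adjusted p of 0.018.

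Against wild-type cells of day 3, KO cells with high doxycycline had more Socs2 and slightly less Socs1. Socs2, Socs3 and Socs5 were called higher and Socs1 lower, where 41.1% of all genes were called, 22.1% higher and 19.0% lower. The differences were 2.05 (SE 0.191, 4.13-fold) for Socs2, -0.38 (SE 0.103) for Socs1 with overlapping arrays, and -0.11 (SE 0.11, adjusted p = 0.46) for Cish. Socs3 was higher by 0.48 on the representing set and by 0.92 and 1.77 on the others, and Socs5 by 0.52 and, on its other set, 0.61. Low doxycycline against wild type called Socs1 at 0.54 (SE 0.103) and Socs2 at 1.46 (SE 0.191), where 34.2% of all genes were called, 18.9% higher and 15.3% lower. Of 3 Socs3 sets 2 were called higher there, up to 1.11, and the representing set gave 0.21 (SE 0.134, not called). Of 4 Socs4 sets 1 was called higher. At day 1 high doxycycline against wild type called 0 members on their representing sets in limma, where 39.3% of all genes were called (29.6% higher, 9.76% lower) and 2 members had an unadjusted p under 0.05. Of 4 Socs4 sets, however, 3 were called lower in the fit over all probe sets, with differences down to -0.72. Of 5 Socs2 sets 2 were called higher, with differences up to 0.39, and of 4 Socs7 sets 1 was called higher. In the day 3 comparison of high doxycycline with wild type, 7 of 9 plasma cell markers were higher, with sums between 37621 and 41112 against between 32716 and 33829. Of 9 tested B cell markers 6 were lower, of 7 tested T cell markers 4 were higher, and of 16 myeloid markers 2 were higher and 1 lower. Their part in the differences of the members was not tested. Several of these comparisons share groups, so their values are set side by side and are not independent.

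Pathway genes around the family moved in the day 3 comparison of high with no doxycycline, where 48.6% of all genes were called, 24.4% higher and 24.2% lower. Of 10 tested JAK and STAT genes 1 was higher and 7 lower (median -0.42 against 0.0 over all genes), with Jak2 at -0.92 (SE 0.0692) and Stat4 at -0.91 (SE 0.167). Of 7 tested receptors for the culture cytokines and CD40, 1 was higher and 4 lower. Il2ra, the high-affinity IL-2 receptor chain, was higher by 1.13 (SE 0.129), and Cd40 gave -1.25 (SE 0.105). Of 13 STAT5 target genes 8 were higher and 3 lower (median 0.59), with Prdm1, the plasma cell regulator Blimp-1, at 3.2 (SE 0.199), Pim2 at 1.25 (SE 0.0726) and Bcl6 at -1.42 (SE 0.205). Of 10 tested STAT6 and IL-4 target genes 1 was higher and 6 lower (median -0.66), with the costimulator Cd86 at -1.64 (SE 0.189). Of 8 tested STAT3 target genes 2 were higher and 3 lower (median -0.19), with Pim1 at 0.72 (SE 0.107).

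In that comparison 13 of 16 myeloid markers were lower, with sums between 2999 and 4042 with high doxycycline against between 12801 and 22793 without, and all 6 NK markers were lower. Of 5 platelet markers 2 were lower, of 5 tested dendritic cell markers 1 was lower, and of 7 tested T cell markers 1 was higher and 2 were lower. Of 9 plasma cell markers 8 were higher, with sums between 37621 and 41112 against between 12647 and 14035, and of 9 tested B cell markers 8 were lower. The plasma cell list and its sums hold Irf4 itself. With low against no doxycycline at day 3, 10 of 16 myeloid, 1 of 6 NK and 7 of 9 B cell markers were lower and 8 of 9 plasma cell markers were higher. Of all genes 35.8% were called there, 17.6% higher and 18.2% lower. Their part in the dose differences of Socs2, Socs1 and Cish was not tested.

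After stimulation of wild-type cells, the same lists gave other counts at day 1 against day 0. Stat5a rose by 1.88 (SE 0.0968) and Jak1 fell by 0.73 (SE 0.141), and of 10 JAK and STAT genes 2 were higher and 6 lower, close to the 81.5% called among all genes (33.9% higher, 47.6% lower). Of the 7 receptor genes 3 were higher and 2 lower, with Il5ra at 2.43 (SE 0.112) and Il2ra at 1.93 (SE 0.129). The SOCS box ligase partners, through which the family marks proteins for degradation, gave 5 of 6 higher and 1 lower (median 0.78 against -0.15), with Cul5, the cullin of the SOCS ligase, at 1.18 (SE 0.0833). All 19 immediate early genes were lower, Fos by a difference of -6.79 (SE 0.23), and their summed intensity was between 145196 and 150655 at day 0 and between 24538 and 25316 at day 1. Socs3 fell beside them, and their part in its fall was not tested.

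The order of group means describes each of Socs2, Socs1 and Cish. Socs2 was highest in KO with high doxycycline at day 3 (13.27), then with low doxycycline at day 3 (12.69), with high doxycycline at day 1 (12.08) and in wild type at day 1 (11.9). Of these neighbours only the last pair overlapped. Socs1 was highest in KO without doxycycline at day 3 (11.97), and at day 1 without and with low doxycycline (11.8 and 11.76), whose arrays overlapped. Cish was highest in the 4 day 1 groups, between 11.85 and 12.03, where each overlapped its neighbour, and then in KO without doxycycline at day 3 (11.54).

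Over the 10 group means, the genes most like Cish by Pearson correlation were Zfp267 (0.988), Zfp982 (0.987) and Trpc2 (0.987). Those most like Socs1 were Senp8 (0.993), Irgm1 (0.991) and Kantr (0.991). Those most like Socs2 were Bsg (0.974), Med24 (0.973) and Sap30 (0.97). These are descriptions over 10 points that share day 0 against stimulated culture as their widest difference. Their own spans differ, from 0.42 on the log2 scale for Med24 to 2.92 for Irgm1.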

How the data were processed

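Transcripts were measured on 30 Affymetrix mouse expression arrays in 10 groups of 3. The authors deposited an intensity on a linear scale for every probe set of an array, which the series text says came from D-Chip with its PM-only model. MAS5 also stands in the submitters' processing notes, where its role is not stated. Of 45101 probe sets, 64 controls were left out, 34945 carried 1 symbol in the platform annotation, 932 several and 9160 none. A set was tested if 3 or more arrays exceeded the table's median intensity of 188.2, which left 26095 sets. The tested set of highest mean represented each of 12183 genes. Here 16 was added to each intensity before taking log2. limma 3.58.1 under R 4.3.3 (lmFit, contrasts.fit, eBayes) then estimated 10 group means from the 30 arrays, with 20 residual degrees of freedom and Benjamini-Hochberg adjustment. The fit was tested on simulated data. The number of arrays limits the precision, and arrays give no counting depth.

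The members and lists were chosen with earlier results of these data known. All members are named. Of each list up to 3 called genes of largest difference could be named, and of each member spanning 2 or more over its group means, the 3 genes of highest correlation. The lists were JAK and STAT genes, receptors for the culture cytokines, other restrainers of JAK-STAT signalling, SOCS box ligase partners, other SOCS box proteins, STAT5, STAT6 and STAT3 targets, immediate early genes, and markers of B, myeloid, NK, T, dendritic, erythroid, platelet and plasma cells. The results of 1 further list are not reported here.

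Per the series text, 2 replicates of each group were handled in parallel and 1 at another time, without saying which. Same-numbered KO arrays deviated together (correlations between 0.3 and 0.858, over 0.1 in 63 of 63 pairs). Correlations between arrays of different numbers were not examined. By Xist and Y-linked transcripts, KO replicates 1 and 2 were male and replicate 3 female, and all wild-type arrays were female. Pairing by mouse, sex and time of handling therefore cannot be told apart in these correlations. Same-numbered wild-type arrays correlated over 0.1 in 5 of 9 pairs. Alternatives covered pseudocount, scaling, filter, probe set choice, samples in the fit, array weights, replicate block, a sex term and each array left out. The replicate block in KO arrays alone was added after the data were seen.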

Additional observations from a re-analysis of the deposited data

Results flagged for a closer look

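The members whose change over time differed between genotypes, or between doses, by a test of the difference itself are given here with their values in limma, all on the log2 scale. For day 1 against day 0, KO without doxycycline minus wild type gave 0.89 for Socs1, -2.26 for Socs2, 0.4 for Socs5 and -0.43 for Socs6. The Socs5 value lost its call when KO day 0 replicate 2, KO day 1 replicate 3 or wild-type day 0 replicate 2 was left out, with adjusted p up to 0.068. It was also lost with each array centred on its median (0.23, adjusted p = 0.2) and with quantile normalization (0.32, adjusted p = 0.066).

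For day 3 against day 0, the same difference gave 0.84 for Cish, 1.28 for Socs1, -2.09 for Socs2, 0.79 for Socs5, -0.33 for Socs6 and 0.26 for Socs7, where 25.9% of all genes were called. The other Socs5 set gave 0.21, not called, so the size depends on the probe set. Socs1 rose more and Socs2 rose less in KO cells than in wild type. The Socs6 and Socs7 values were lost with 7 and 9 of the 12 arrays left out in turn, with adjusted p up to 0.14 and 0.12.

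For day 3 against day 1, KO without doxycycline minus wild type gave 1.01 for Cish, 0.39 for Socs1 and 0.39 for Socs5. Without the 2 libraries that go against their dose labels, Cish remained called at 0.94, and Socs1 (adjusted p = 0.12) and Socs5 (adjusted p = 0.088) did not. With the 12 arrays left out in turn, the Socs1 call was lost in 10 fits (adjusted p up to 0.13) and the Socs5 call in 6 (adjusted p up to 0.11). The Socs1 call was also lost with a pseudocount of 1 (adjusted p = 0.052), with quantile normalization (0.056) and with no filter on low values (0.058). The other Socs5 set gave -0.07, not called. Of the 3 Socs3 sets, 1416576_at and 1455899_x_at were called, at 1.23 and 1.83, and the representing set gave 0.31, not called. For day 3 against day 1, high minus no doxycycline gave -0.99 for Cish, -1.02 for Socs1 and 1.68 for Socs2. Both comparisons of day 3 with day 1 were added after the data were seen, as was the replicate block in KO arrays alone.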

How the results depend on the processing

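Of 168 member differences, 75 were called, 58 of these kept their call and direction under every alternative run, 17 lost the call under at least 1 and 0 reversed. The calls of Cish, Socs1 and Socs2 against no doxycycline at day 3 were among those kept. The number of members called between wild-type days 3 and 1 went from 3 to 5 with each array centred on its median, with the mean of a gene's probe sets, with only those groups in the fit and with the replicate block. Between KO without doxycycline and wild type at day 1 it went from 3 to 5 with centring, with the mean of sets and with array weights. At day 0 it went from 3 to 1 with only those groups fitted and to 5 with array weights. For high against no doxycycline at day 1 it went from 2 to 0 with only those groups fitted. For KO without doxycycline at day 3 against day 1 it went from 5 to 3 with the mean of sets. For low doxycycline against wild type at day 3 it went from 2 to 4 with the mean of sets and with array weights. For high doxycycline against wild type at day 1 it went from 0 to 1 with a pseudocount of 64, quantile normalization or the replicate block, to 2 with centring, the mean of sets or a sex term, and to 3 with array weights. For the genotype difference in the day 3 against day 1 change it went from 3 to 1 without the 2 libraries against their labels. The cause of these moves was not tested. The replicate block in KO arrays alone changed no other member's call than the 3 given for Cish, Socs2 and Socs7.

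With each array left out in turn, members called ranged, for wild type, 7 to 7 at day 1 against day 0 and 3 to 4 at day 3 against day 1. For KO without doxycycline they ranged 6 to 7 and 3 to 5 for the same steps, 4 to 5 for the later step with low and 5 to 6 with high doxycycline. KO against wild type gave 2 to 6 at day 0, 2 to 4 at day 1 and 4 to 4 at day 3 without doxycycline, 2 to 3 with low and 4 to 4 with high doxycycline at day 3, and 0 to 2 with high doxycycline at day 1. Doses gave 0 to 0 (low against none) and 2 to 2 (high against none) at day 1, and 3 to 3, 3 to 3 and 1 to 3 (low against none, high against none, high against low) at day 3. The genotype difference of changes gave 3 to 5 from day 0 to day 1, 4 to 8 from day 0 to day 3 and 1 to 3 from day 1 to day 3, and the high dose difference 3 to 3. Over all genes, calls for high against no doxycycline at day 1 went from 335 to 3 with only those groups fitted, to 190 with centring, to 208 without the library against its label and to between 511 and 687 with array weights, a sex term or a block. Other counts over all genes that moved by over 1.5 times were KO against wild type at day 0 (3832 to 1332), the day 3 interaction with day 0 (3156 to 1953) and high against low doxycycline at day 3 (1557 to 695) with only those groups fitted. With array weights, the last went to 4019, low doxycycline against wild type at day 3 from 4164 to 6868, high doxycycline against wild type at day 1 from 4792 to 7434 and the genotype difference in the day 3 against day 1 change from 3557 to 6210. Centring moved the median of all genes by 0.16 for wild-type day 1 against day 0, by -0.13 for day 3 against day 1, by -0.14 and -0.12 for KO without and with high doxycycline against wild type at day 1, and by -0.17 and 0.15 for the genotype differences of changes to day 1 and from day 1 to day 3.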

Other observations

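Other proteins with a SOCS box and other restrainers of JAK-STAT signalling gave further called differences. In the day 3 comparison of high with no doxycycline, 1 of 13 tested other SOCS box genes was higher and 5 were lower (median -0.1 against 0.0 over all genes). Of all genes 48.6% were called there, 24.4% higher and 24.2% lower. Asb2, an ankyrin repeat protein with a SOCS box, gave -1.82 (SE 0.254) there and 1.65 (SE 0.254) for KO without doxycycline against wild type at day 3. Of the 13 other restrainers 0 were higher in limma and 9 were lower (median -0.26), with Cblb, a ubiquitin ligase that dampens lymphocyte activation, at -1.68 (SE 0.144) and Sh2b3, an adaptor that restrains cytokine receptors, at -0.89 (SE 0.11). Against wild type at day 3, KO without doxycycline had 9 of these 13 higher and 1 lower, with Cblb at 2.21 (SE 0.144) and Usp18, an inhibitor of interferon signalling, at 1.28 (SE 0.193). Of all genes 34.9% were called there, 19.0% higher and 15.8% lower.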
